A study of Mus musculus with 4 samples.

Results

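The mitochondrial ribosomal protein genes were followed through the blood progenitors of the bone marrow. The members were the genes whose symbol begins with Mrps or Mrpl and a number, without entries marked as pseudogenes; there were 78 of 32227 genes, 29 with a small subunit symbol (Mrps) and 49 with a large subunit symbol (Mrpl). The marrow came from mice labelled WT that had received E0771 breast cancer cells 3 days before surgery, and it was taken 9 days after either sham surgery or femoral artery ligation, which blocks the large artery feeding the leg. Every group therefore carried tumour cells, and there was no group without tumour or without surgery. Cells sorted as Lineage– cKit+ Sca1+/-, a gate for haematopoietic stem and progenitor cells, were tagged by hashtag antibodies and run as 2 single-cell libraries on the PIPseq T20 V4.0PLUS kit, called batch 1 and batch 2. Each library held 2 sham and 2 surgery hashtags, which gave 4 replicates per group; whether a hashtag was 1 mouse or a pool is not stated, so p-values measure only the spread between hashtags. The treatment label calls batch 1 ligation and batch 2 sham, against the hashtag labels, which name both surgeries in each library; the groups here follow the hashtags.

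Mitochondrial ribosomes (mitoribosomes) translate the few proteins that mitochondrial DNA encodes, all of them subunits of the respiratory chain and ATP synthase. Their ribosomal RNAs come from mitochondrial DNA, but every one of their proteins is encoded in the nucleus, made in the cytosol and imported. In blood formation, stem cells are known for low mitochondrial activity, and erythroid precursors for a high mitochondrial demand linked to haem synthesis.

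Of the barcodes with at least 1000 unique molecular identifiers (UMIs, each standing for 1 captured transcript), 26942 cells carried exactly 1 hashtag, 1883 to 5889 per replicate, with 19521590 to 51862441 UMIs per replicate. Batch 2 was sequenced more deeply per cell: median UMIs per cell ran from 5860.5 to 7190.5 in batch 1 and from 10291 to 12406 in batch 2. The libraries shared 5 barcodes. Cells were sorted into types by marker genes, none of them a member, and 8 types had at least 20 cells in every replicate. The markers of the stem cell gate (Hlf, Mecom and others) summed to 4452 CPM there (CPM is the usual scaling of UMI counts to a common total per sample), against 1682 CPM for the neutrophil-granulocyte list, the next highest. The gate labelled Lineage– also held 2918 cells with B-cell markers such as Cd79a, Vpreb1 and Pax5. The types were 1752 haematopoietic stem and early multipotent cells (HSC gate), 725 lymphoid-primed cells, 6733 neutrophil-granulocyte, 1998 monocyte, 1965 erythroid, 375 megakaryocyte and 1020 basophil-mast progenitors, and the B cells. The own marker list summed highest in each of these types except monocyte progenitors. There the neutrophil-granulocyte list summed to 8909 CPM and the monocyte list to 4227 CPM, so this type also held many neutrophil-granulocyte transcripts.

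The members were most abundant in erythroid progenitors and least abundant in basophil-mast progenitors and lymphoid-primed cells. Their summed level, as a share of all UMIs, was 9807 ± 337 CPM (SD, n = 8 replicates) in erythroid progenitors and 5302 ± 174 CPM in the HSC gate. The erythroid level was 1.85 ± 0.0425 times that of the HSC gate within a replicate, and higher in 8 of 8 replicates. Neutrophil-granulocyte progenitors followed at 7449 ± 144 CPM, then megakaryocyte progenitors at 6974 ± 221 CPM and monocyte progenitors at 6863 ± 107 CPM. Megakaryocyte progenitors were above monocyte progenitors in only 4 of 8 replicates, so this neighbouring pair did not differ beyond its spread. B cells came next at 5845 ± 365 CPM, above the HSC gate in 6 of 8 replicates. Lymphoid-primed cells, at 4895 ± 407 CPM, lay below the HSC gate in all but 1 replicate, and basophil-mast progenitors had the lowest mean at 4630 ± 98.2 CPM. Lymphoid-primed cells were above basophil-mast progenitors in 7 of 8 replicates. The order of the means was not firm: over the sham replicates alone the lymphoid-primed mean, 4592 CPM, was below the basophil-mast mean, 4659 CPM. Only in batch 2 sham replicate 1 was the lymphoid-primed level, 4127 CPM, below the basophil-mast level, 4759 CPM. No p is given for these sums, since the genes were grouped with earlier results of these data known.

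**Figure D1:**
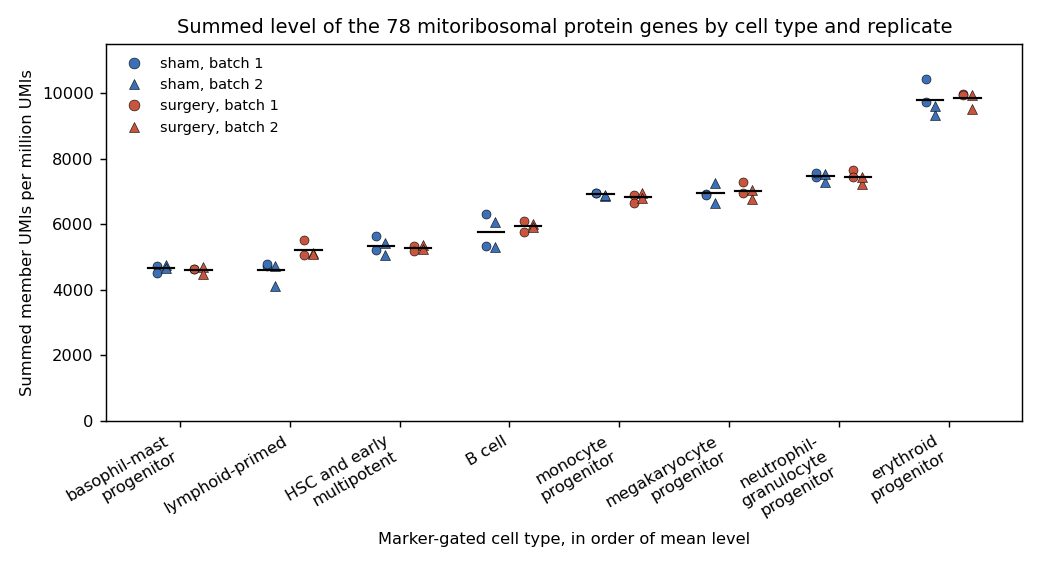
Summed level of the 78 member genes (vertical axis, CPM) in each marker-gated cell type (horizontal axis, in order of mean level), 1 point per hashtag replicate (blue sham, red surgery, circles batch 1, triangles batch 2), with bars at the mean of the 4 sham and the 4 surgery replicates. The 8 erythroid points, 9341 to 10420 CPM, lie above all points of the other types.

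Most single members shared the highest and the lowest type of the sum. Of the 78 members, 58 had their highest mean level in erythroid progenitors, 6 in neutrophil-granulocyte, 5 in monocyte and 4 in megakaryocyte progenitors, 3 in B cells and 2 in the HSC gate. The lowest level fell in basophil-mast progenitors for 51 members and in lymphoid-primed cells for 13. A member's highest type exceeded its lowest by a median of 2.47 times, from 1.22 times for Mrpl24 to 6.72 times for Mrpl52. Across the 8 types, 59 members had a Pearson correlation of at least 0.8 with the sum of the other members, with a median of 0.884. This is a description over types that share libraries and depth. The counts were not set against all genes, so they do not show a pattern particular to the members. The closest member, Mrpl22, reached 0.983, and the closest of 6763 genes outside the family, Ndufa5, reached 0.993 with the sum. 10 members fell below 0.5, among them the small subunit protein Mrps9 at -0.41 and the large subunit protein Mrpl24 at -0.23, chosen here after their values were seen.

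Mrpl52, a large subunit protein, ranged most widely. In erythroid progenitors its 8 replicates ran from 515 CPM through a median of 536 CPM to 558 CPM, and in neutrophil-granulocyte progenitors from 72.5 CPM through 81.3 CPM to 85.6 CPM. The HSC gate, at 164 to 207 CPM, stood between them and above the monocyte progenitors, at 100.1 to 110 CPM, with no overlap. Mrpl52 thus kept the erythroid peak of the other members but was lowest in a type where the sum was high.

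Mrps36 is named as a small subunit protein, although it is now known as an adaptor subunit of the alpha-ketoglutarate dehydrogenase complex of the citric acid cycle. It ran from 198 to 228 CPM in erythroid progenitors, with a median of 209.7 CPM, and from 30.9 to 50.7 CPM in the HSC gate, with a median of 41.8 CPM. No other type had a replicate above 91.3 CPM, so the erythroid replicates stood alone.

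Mrpl33, a small protein of the large subunit, was a monocyte-high member. Its replicates ran from 620 through a median of 652 to 702 CPM in monocyte progenitors, from 461 to 493 CPM in neutrophil-granulocyte progenitors and from only 265 to 312 CPM in erythroid progenitors. B cells were lowest, from 134.5 to 184 CPM. Mrpl44, a large subunit protein related to ribonuclease III enzymes, was highest in neutrophil-granulocyte progenitors, at 70.3 to 82.4 CPM with a median of 73.0 CPM, against 28.7 to 37.6 CPM in erythroid progenitors and 24.2 to 32.9 CPM in the HSC gate. These myeloid peaks did not overlap the HSC replicates.

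**Figure D2:**
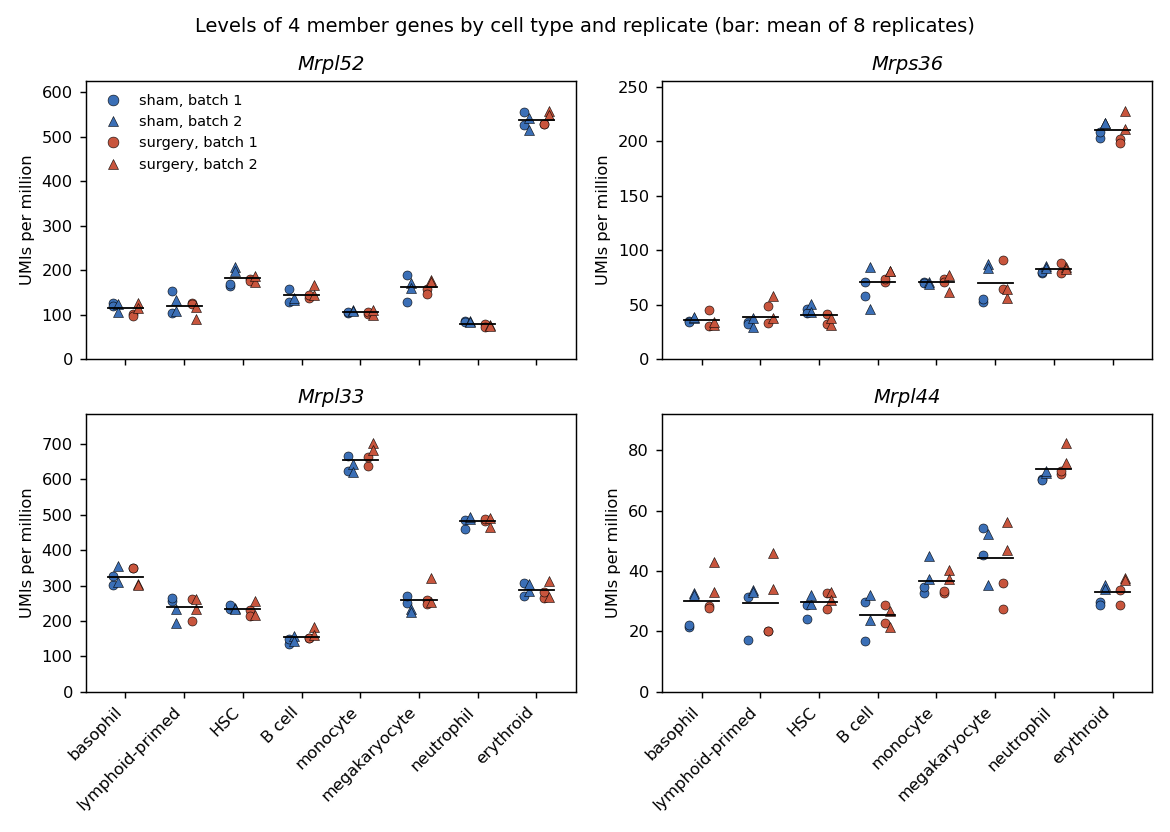
Levels of Mrpl52, Mrps36, Mrpl33 and Mrpl44 (vertical axes, CPM, each with its own scale) in 8 cell types (horizontal axis, in the order of the summed members), 1 point per replicate (blue sham, red surgery, circles batch 1, triangles batch 2), with bars at the mean of 8 replicates. Mrpl52 and Mrps36 peak in erythroid progenitors (537.6 and 210.4 CPM), Mrpl33 in monocyte progenitors (655 CPM) and Mrpl44 in neutrophil-granulocyte progenitors (73.8 CPM).

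The HSC gate was then compared gene by gene with 5 other types in 1 edgeR quasi-likelihood fit over 11433 genes. The fit held all 8 gated types, with the replicate as a term, so its spread was pooled over them and not taken from each compared pair alone. Benjamini-Hochberg adjustment ran over all genes of a contrast. Changes are log2 ratios of the HSC gate over the other type, so a negative value means lower in HSC. For these and the surgery changes of single genes, ± marks a standard error worked back from the change and its edgeR test statistic. Against erythroid progenitors, 75 of 78 members were lower in the HSC gate at adjusted p under 0.05 and 0 were higher. Over all genes, 40.6% were called lower and 41.2% higher in this contrast. The median member change was -1.22, against 0.02 for all genes tested. The 3 that missed the threshold were Mrps9, Mrpl24 and Mrps27.

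The largest erythroid difference belonged to Mrps36, at -2.72 ± 0.07 (edgeR adjusted p = 3.8e-52). Mrps22, a small subunit protein specific to mitochondria, followed at -2.08 ± 0.11 (edgeR adjusted p = 7.5e-31), and Mrpl22, which also lines the tunnel through which the new peptide leaves, at -2.04 ± 0.08. Mrpl12, a stalk protein that has also been linked to mitochondrial RNA polymerase, differed by -1.25 ± 0.07, and Mrpl11, its partner at the stalk base, by -0.95 ± 0.08. The decoding-centre protein Mrps12 differed by -1.003 ± 0.070. The 3 Mrps18 paralogues, which occupy different places in the mitoribosome, differed alike, by -1.23 ± 0.08 for Mrps18a, -1.37 ± 0.08 for Mrps18b and -1.47 ± 0.06 for Mrps18c; their differences from each other were not tested. Mrps2, Mrps5 and Mrps35, small subunit proteins, gave -0.70 ± 0.12, -1.01 ± 0.07 and -0.63 ± 0.08. Mrps30, named for the small subunit but located in the large one, gave -1.01 ± 0.09, and Mrpl58, a peptidyl-tRNA hydrolase built into the large subunit, -1.11 ± 0.09. All of these passed the threshold.

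Against neutrophil-granulocyte progenitors, 73 members were lower and 1 was higher in the HSC gate, where 36% of all genes were called lower and 38.5% higher. The median member change was -0.81, against 0.03 for all genes. Mrpl44 had the largest difference at -1.65 ± 0.08 (edgeR adjusted p = 5.6e-34), ahead of the large subunit proteins Mrpl41 at -1.53 ± 0.08 and Mrpl51 at -1.48 ± 0.06. Mrpl52 was the 1 member called higher in HSC, by 0.85 ± 0.05 (edgeR adjusted p = 1.8e-27). With counts scaled by library totals only, in place of TMM factors, 67 members were lower and 6 higher, with a median of -0.48.

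Against monocyte progenitors, 62 members were lower and 1 was higher, with a background of 32.4% lower and 34.2% higher. The median change was -0.48, against 0.03 for all genes. Mrpl33 led at -1.66 ± 0.05 (edgeR adjusted p = 6.6e-49), followed by Mrpl58 at -1.05 ± 0.09 and Mrpl4, which lines the peptide tunnel, at -1.03 ± 0.08. Mrpl52 was again the member called higher in HSC, by 0.60 ± 0.06. The monocyte count was the least stable of these: 33 lower and 3 higher, of 75 tested, when each cell was thinned to 2000 UMIs, and 41 lower with a stricter gate. With library totals only it was 51 lower and 4 higher, with a median of -0.30.

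Lymphoid-primed cells, the nearest type in summed level, gave few calls. 8 members were higher and 2 lower in the HSC gate, against 14.9% and 15.5% of all genes, and the median was 0.03. Mrpl52 was higher in HSC by 0.63 ± 0.07 (edgeR adjusted p = 3.4e-12), Mrpl16, a protein of the central large subunit, by 0.43 ± 0.15, Mrpl14 by 0.40 ± 0.10 and Mrpl12 by 0.24 ± 0.10. Mrps6 and Mrps34, both small subunit proteins, were lower by -0.36 ± 0.14 and -0.28 ± 0.10. The count ran from 4 to 14 higher and from 0 to 3 lower over the alternative settings. With library totals only it was 14 higher and 0 lower, so that Mrps6 and Mrps34 missed the threshold, and without batch 1 sham replicate 1, batch 2 sham replicate 1 or batch 2 sham replicate 2 the higher calls were 5.

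B cells split the family. 38 members were lower and 15 higher in the HSC gate, where 32.2% of all genes were lower and 35.1% higher, and the median was -0.18. Mrpl49 was lowest in HSC relative to B cells, at -1.04 ± 0.11 (edgeR adjusted p = 1.4e-13), with Mrps21 at -0.81 ± 0.06 and Mrps36 at -0.81 ± 0.09. Mrpl33 was higher in HSC by 0.61 ± 0.06 (edgeR adjusted p = 5.1e-17), Mrps18b by 0.42 ± 0.10 and Mrpl52 by 0.35 ± 0.06. The lower calls ranged from 21 (cells thinned to 2000 UMIs) to 47 over the alternative settings, and the higher calls from 2 (batch 2 alone) to 15, with 4 under the stricter gate. Without batch 1 sham replicate 1 the split was 47 lower and 6 higher.

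Read across contrasts, 62 members were lower in the HSC gate than in erythroid, neutrophil-granulocyte and monocyte progenitors alike, a pattern that 15.4% of all genes tested had. Of those 62, 36 were also lower than in B cells and 9 were higher, patterns of 8.12% and 3% of all genes. Both shares are of all 11433 genes and not of the genes that had the first pattern. Of the 1758 genes with the first pattern, 928 were also lower than in B cells and 343 were higher. Whether the members differed from those 1758 genes in this step was not tested. 2 members were called in none of the 5 contrasts, as were 2.38% of all genes. Scaling by library totals only moved the median of all genes by 0.35 in the erythroid, 0.34 in the neutrophil-granulocyte and 0.18 in the monocyte contrast. Such a change of scale moves all genes of a contrast nearly alike, and the members lay -1.24, -0.84 and -0.51 from that median in the TMM fit. In that scaling Mrpl19 and Mrps6 changed sign against erythroid progenitors and missed the threshold (0.0079 and 0.030, in place of -0.35 and -0.32), and Mrps9 and Mrpl24 were called higher in HSC. Cells of the types also differed in depth, with median UMIs per cell of 5603.5 in the HSC gate, 15472 in neutrophil-granulocyte and 14950 in erythroid progenitors; with cells thinned to 2000 UMIs, 67 of 75 members tested were called lower against each of these.

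**Figure D3:**
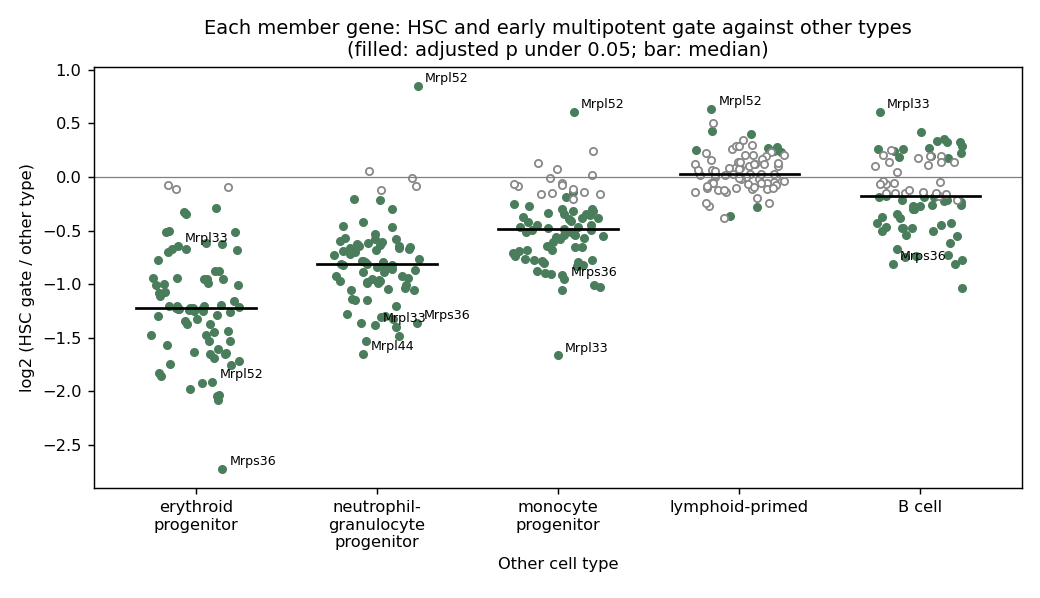
Change of each member gene, log2 of the HSC gate over the other type (vertical axis), in 5 contrasts (horizontal axis); filled points have an edgeR adjusted p under 0.05, open points do not, and bars mark the median. Nearly the whole family lies below 0 against erythroid (median -1.22) and neutrophil-granulocyte progenitors (median -0.81), with Mrpl52 alone above 0 among filled points in the neutrophil-granulocyte and monocyte contrasts.

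Exons of 28 members overlapped a gene on the other strand in the GENCODE annotation and exons of 8 overlapped another gene on the same strand. No source used here states whether counting took strand into account, so reads of partners on the other strand may not be separable. Among such members were Mrpl44 (with Wdfy1), Mrpl49 (with Syvn1) and Mrpl12 (with Gm16755). Strand could not separate reads of partners on the same strand, as for Mrpl33 (with Gm43809), Mrps6 (with Slc5a3) and Mrps34 (with Nme3). Mrpl52 (chr14:54426909-54429756, plus strand), Mrps36 (chr13:100735955-100744659, minus strand) and Mrps22 (chr9:98588730-98601660, minus strand; all GRCm38) had no such overlap.

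Since most members moved together over the cell types, their promoters were scanned for short motifs of factors known to act on nuclear genes of mitochondria. RefSeq promoter entries (GRCm38.p6, 250 bases before to 50 after the start, the first entry per gene) were found for 69 of 78 members. The ETS core CCGGAAG, bound by GABP and related factors, was present on either strand in 25 of the 69, or 36.2%, against 9.12% of all 27025 promoters. The NRF1 motif was present in 13, or 18.8%, against 4.78%, and the YY1 motif AAGATGGC in 12, or 17.4%, against 2.88%. The E-box CACGTG, which MYC can bind, was found in 5, or 7.25%, against 7.24%. The GC box GGGCGG was in 34, or 49.3%, against 35.9%. 42 of the 69 held at least 1 of the ETS, NRF1 and YY1 motifs, against 15.2% of all promoters. These are matches of letters and not sites shown to be bound.

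The 150 bases before the RefSeq start are shown for 4 members, chosen after their values were seen from those with large differences between types: Mrpl52 (chr14:54426759-54426908, plus strand), Mrps22 (chr9:98601680-98601829, minus strand), Mrpl44 (chr1:79775868-79776017, plus strand) and Mrps36 (chr13:100744660-100744809, minus strand). They run 5′ to 3′ on the gene's strand, and capitals mark matches to the ETS, NRF1, YY1 or E-box motif.
Mrpl52: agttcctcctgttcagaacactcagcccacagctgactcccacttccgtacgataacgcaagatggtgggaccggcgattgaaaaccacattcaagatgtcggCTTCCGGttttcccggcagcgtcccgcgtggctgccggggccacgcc
Mrps22: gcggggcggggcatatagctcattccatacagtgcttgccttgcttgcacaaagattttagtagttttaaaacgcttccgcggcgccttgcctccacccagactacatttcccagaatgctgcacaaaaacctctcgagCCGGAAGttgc
Mrpl44: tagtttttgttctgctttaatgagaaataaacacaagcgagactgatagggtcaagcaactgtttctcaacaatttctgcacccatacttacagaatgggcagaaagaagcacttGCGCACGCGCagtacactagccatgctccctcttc
Mrps36: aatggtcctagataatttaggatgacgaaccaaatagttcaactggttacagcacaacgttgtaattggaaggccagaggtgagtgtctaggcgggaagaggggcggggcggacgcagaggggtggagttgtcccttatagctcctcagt
Mrpl52 and Mrps22, both highest in erythroid progenitors, carried an ETS match upstream of the start, on the other and on the same strand respectively. Mrpl44, highest in neutrophil-granulocyte progenitors, carried an NRF1 match, and the window of Mrps36, with the largest erythroid difference, held none of the 4. Whether any motif goes with a cell type was not tested, and so few chosen members cannot show it.

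Other parts of the mitochondrial translation machinery were counted from lists in the same contrasts. Against erythroid progenitors all 6 tested mitoribosomal proteins of a second list, which holds Mrpl58 and 5 proteins without an Mrp symbol, were lower in the HSC gate, including the GTP-binding small subunit protein Dap3 at -1.63 ± 0.06 and Gadd45gip1 at -1.56 ± 0.07. Translation factors had 9 of 13 lower and 1 higher, with the elongation factor Tsfm at -1.74 ± 0.09 and Gfm1 at -1.37 ± 0.10. Assembly and rRNA modification factors had 13 of 20 lower and 1 higher, led by Noa1 at -1.32 ± 0.11. Mitochondrial tRNA synthetases had 8 of 17 lower and 3 higher, with Yars2 at -1.29 ± 0.11. Genes of mitochondrial DNA transcription and replication had 7 of 10 lower and 1 higher, with the RNA-binding protein Slirp at -1.45 ± 0.06 and the polymerase subunit Polg2 at 1.27 ± 0.15. The list medians were -1.21, -0.46, -0.42, -0.27 and -0.61 in that order, beside -1.22 for the members and 0.02 for all genes. The lower calls of each list stand against 40.6% of all genes, a share that the tRNA synthetases, at 8 of 17, were near.

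The templates that the mitoribosome translates, the 13 mRNAs encoded in mitochondrial DNA, were all lower in the HSC gate than in erythroid progenitors, with a median of -1.02 and mt-Nd1 at -1.36 ± 0.04. The proteins of the cytosolic ribosome had 83 of 92 lower and 4 higher, with a smaller median of -0.51. Among 8 biogenesis regulators 4 were higher and 3 lower. Myc was higher in the HSC gate by 1.01 ± 0.08 and Gabpa lower by -0.57 ± 0.10. Over the 8 types the Pearson correlation with the summed members was 0.21 for Gabpa, -0.16 for Nrf1, -0.85 for Yy1 and -0.22 for Myc. A link between these mRNA levels and the promoter motifs was not tested. The mitochondrial rRNAs were not analysed here.

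Against B cells the ribosomes parted: 80 of 92 cytosolic ribosomal proteins were higher in the HSC gate, where 35.1% of all genes were, with a median of 0.45, while the members' median was -0.18. Against monocyte progenitors the tRNA synthetases had 8 of 17 higher and 1 lower in the HSC gate, against 34.2% and 32.4% of all genes, with a median of 0.27, while the members' median was -0.48. The difference between these lists was not tested.

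The 5 genes whose level over the 8 types was most like that of the summed members, of 6763 compared, were Ndufa5, a subunit of respiratory complex I (Pearson r = 0.993), Polr2j, a subunit of RNA polymerase II (0.992), Psmd6, a proteasome subunit (0.992), Cyc1, cytochrome c1 of complex III (0.991), and the proteasome subunit Psma5 (0.990). This likeness is over 8 types that share libraries.

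Cells with detected G2 and M phase transcripts were compared with the rest inside each type. The rest can include cells in other phases of the cycle. Cells with UMIs of at least 3 of 15 G2 and M phase genes were set against cells with fewer, after each cell was thinned to 2000 UMIs, which left out 2918 shallower cells. In B cells the summed member level was 6129 ± 316 CPM in cells with these transcripts and 4543 ± 278 CPM in those without (SD, n = 8), a mean log2 ratio of 0.43 ± 0.09 and higher in 8 of 8 replicates, with 0.39 in batch 1 and 0.47 in batch 2. In neutrophil-granulocyte progenitors the ratio was 0.05 ± 0.05, also in 8 of 8, and in the HSC gate 0.09 ± 0.07, in 7 of 8. Erythroid progenitors, with 1492 cells that held these transcripts and 422 that did not, gave 0.02 ± 0.10 and 4 of 8.

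Depth moved these ratios. Without thinning they were 0.70 in B cells, 0.24 in the HSC gate and 0.24 in neutrophil-granulocyte progenitors, and at 1000 UMIs per cell 0.45, 0.098 and -0.0026. Erythroid progenitors gave -0.074 at 1000 UMIs, higher in 1 of 8 replicates. Basophil-mast progenitors had enough cells on both sides only without thinning, with 0.29, or at 2000 UMIs when a single G2 or M gene sufficed, with 0.24, both higher in 8 of 8 replicates. The B-cell ratio was similar at both thinned depths, with every replicate higher, and the neutrophil-granulocyte ratio was not detectable at the lower depth.

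**Figure D4:**
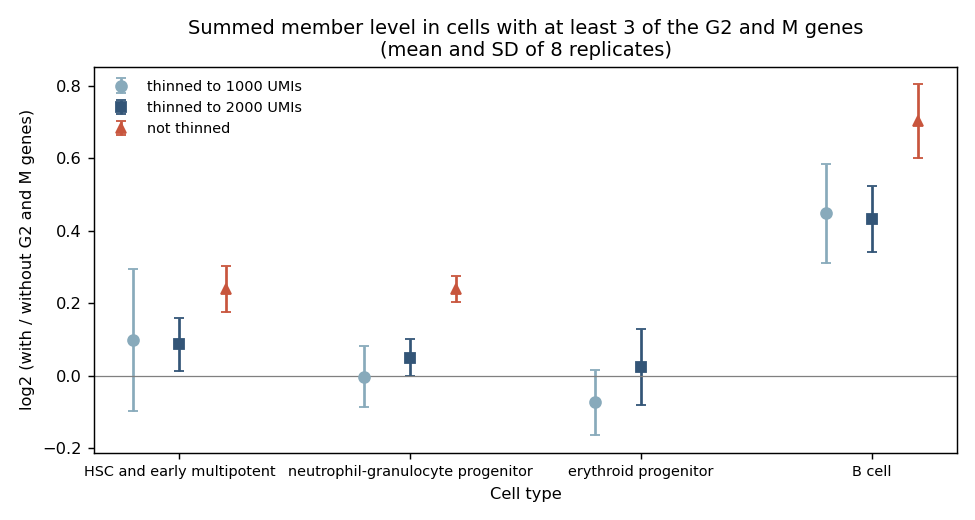
Ratio of the summed member level in cells with at least 3 G2 and M genes to that in cells with fewer (vertical axis, log2), for 4 cell types (horizontal axis), at 3 depths; points are means and bars SDs of 8 replicates. B cells lie at 0.43 to 0.70 at all depths, and the HSC, neutrophil-granulocyte and erythroid means from -0.074 to 0.098 once cells are thinned; erythroid progenitors have no point without thinning, because types without enough cells on both sides in every replicate were left out.

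Surgery and sham replicates were then compared, first over all cells. Over all cells 0 of 78 members passed an adjusted p of 0.05 in the edgeR fit with batch as a term; only 0.0415% of all genes did, so this count does not set the members apart. DESeq2 also called 0, and 2 members had an unadjusted p under 0.05, as did 4.53% of all genes. The summed level was 7344, 7359, 7199 and 7130 CPM in the sham replicates and 7379, 7050, 7078 and 7180 CPM in the surgery replicates. The groups overlapped, with means of 7258 ± 112 and 7172 ± 149 CPM (SD, n = 4). The surgery minus sham difference was -137 CPM in batch 1 and -35.8 CPM in batch 2. No member's groups were separate over all cells, either with every surgery replicate higher (0.526% of genes with a mean of at least 20 CPM) or lower (0.628%).

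Among members with a mean of at least 20 CPM, those farthest from 0 over all cells were Mrpl52, at -0.16 ± 0.05 (unadjusted p = 0.0139), and Mrpl44, at 0.13 ± 0.06 (unadjusted p = 0.0421); neither passed adjustment over all genes in edgeR. On the low side followed Mrps22 at -0.10 ± 0.05, Mrpl47 at -0.09 ± 0.05, Mrpl16 at -0.08 ± 0.05, Mrps30 at -0.07 ± 0.05 and Mrpl37 at -0.07 ± 0.04. On the high side were Mrpl19 at 0.06 ± 0.06, Mrps33 at 0.05 ± 0.04, Mrpl27 and Mrpl21 at 0.04 ± 0.04, and Mrpl46 at 0.04 ± 0.05. The median of the 78 was -0.0051, and that of all genes was -0.0021. Below that level, Mrps2 stood at -0.08 ± 0.05.

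Since Mrpl52 was high in erythroid and Mrpl44 in neutrophil-granulocyte progenitors, the make-up of the sample was set beside them. All 8 erythroid markers were lower after surgery, 3 with an unadjusted p under 0.05, and their sum ran from 768 to 1545 CPM in sham and from 709 to 1056 CPM in surgery. All 8 neutrophil-granulocyte markers were higher, 1 with an unadjusted p under 0.05, with sums of 17962 to 19680 CPM and 17613 to 25717 CPM. Erythroid progenitors were 5.91% to 9.69% of cells in sham and 4.89% to 7.59% in surgery, and neutrophil-granulocyte progenitors 22.0% to 25.3% and 21.5% to 36.1%. The highest neutrophil-granulocyte share was that of batch 2 surgery replicate 1 (679 of 1883 cells). The lowest was that of batch 1 surgery replicate 2 (738 of 3437 cells). Of 7 B-cell markers 5 were lower, with sums of 565 to 1147 CPM and 591 to 904 CPM. These groups all overlapped, no marker passed adjustment in edgeR, and their part in the values of Mrpl52 and Mrpl44 was not tested. In sums over all cells, fewer cells of a type and less RNA per cell cannot be told apart.

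Within cell types there was also no member call. 0 members passed in the HSC gate, where 0.0202% of all genes did, nor in lymphoid-primed cells (0.6%), neutrophil-granulocyte (0.0522%), monocyte (0.0758%), erythroid (0%), megakaryocyte (0.0286%) or basophil-mast progenitors (0.012%), nor in B cells (0.0727%). Unadjusted p-values under 0.05 were counted for 3 of 78 members in the HSC gate (3.9% of all genes) and 10 of 74 in lymphoid-primed cells (10.4% of all genes). They were counted for 1 member in neutrophil-granulocyte (3.78%), 5 in monocyte (4.38%), 2 in erythroid (3.22%), 6 in megakaryocyte (4.74%) and 1 in basophil-mast progenitors (3.27%), and for 0 in B cells (4.99%). The lymphoid-primed count thus stood beside the highest share over all genes. DESeq2 likewise called 0 members over these types.

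In the HSC gate the groups were separate for 6 of 74 members with a mean of at least 20 CPM. Every surgery replicate was higher for Mrps18c, Mrpl46 and Mrpl43, against 0.583% of all such genes, and lower for Mrpl20, Mrpl17 and Mrps36, against 1.1%; these were chosen here after their values were seen. Mrps36 had 42.1 to 50.7 CPM in sham and 30.9 to 41.4 CPM in surgery, and Mrps18c had 91.7 to 111 CPM and 112 to 118 CPM. The members split evenly in direction, 40 higher and 38 lower, with a median of 0.0036. The summed level was 5331 ± 247 CPM in sham and 5274 ± 87.6 CPM in surgery.

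Lymphoid-primed cells, which express Flt3 and Dntt and lead towards lymphocytes, had the member median farthest from 0. Of 74 members that passed the low-count filter, 61 had a higher level after surgery and 13 a lower one, with a median of 0.20 against -0.0036 for all genes, though none passed the test. The summed level was 4726, 4788, 4127 and 4725 CPM in the sham replicates and 5514, 5070, 5132 and 5078 CPM in the surgery replicates. The groups did not overlap, with means of 4592 ± 311 and 5199 ± 212 CPM, and the difference was 535 CPM in batch 1 and 679 CPM in batch 2. The smallest lymphoid-primed samples held 35 and 36 cells.

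Single members in these cells had wide errors. Mrpl13, a large subunit protein, had 51.4, 68.6, 45.5 and 64.7 CPM in sham and 94.9, 75.0, 111 and 86.7 CPM in surgery, a change of 0.58 ± 0.18 (edgeR adjusted p = 0.173). All 4 surgery replicates lay above all 4 sham replicates. Mrpl18, which is known to have a cytosolic stress form, had 85.6, 74.6, 79.1 and 81.7 CPM in sham and 107, 105, 123 and 95.9 CPM in surgery, a change of 0.43 ± 0.16 (edgeR adjusted p = 0.295), again without overlap. Mrpl40 had the largest change, 0.82 ± 0.28 (edgeR adjusted p = 0.236), but its groups overlapped, from 15.8 to 74.2 CPM in sham and from 35.0 to 61.4 CPM in surgery. Without the first sham replicate of batch 1, which holds the value of 74.2 CPM, Mrpl40 passed with an edgeR adjusted p of 0.0396; over the other alternatives its adjusted p reached 0.98. These were chosen after their values were seen, as the members with the lowest p in these cells.

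The separated members numbered 5 of 74, all higher (Mrps14, Mrpl35, Mrpl46, Mrpl13 and Mrpl18), against 2.48% of all genes with that level that were higher and 2.61% that were lower. Small subunit symbols had 21 of 25 higher with a median of 0.15, and large subunit symbols 40 of 49 with a median of 0.21. The 6 tested mitoribosomal proteins of the second list were all higher, with a median of 0.11. Genes of mitochondrial DNA transcription and replication had 6 of 6 higher with a median of 0.22. Translation factors had 3 of 9 higher with a median of -0.06, tRNA synthetases 3 of 9 with a median of -0.24, and the mRNAs encoded in mitochondrial DNA 7 of 12 with a median of 0.01. Cytosolic ribosomal proteins had 72 of 87 higher with a median of 0.07. None of these lists held a call.

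Other features of the lymphoid-primed gate moved along. The sum of its 5 own markers had means of 3556 CPM in sham and 3491 CPM in surgery, with overlap, but the markers moved apart. 2 of them were lower after surgery without overlap: Flt3 ran from 656 to 793 CPM in sham and from 591 to 642 CPM in surgery, and Satb1 from 710.1 to 805 and from 498 to 648 CPM. The list of HSC markers summed to 948 to 1219 CPM in sham and 863 to 943 CPM in surgery, the monocyte list to 748 to 1022 and 593 to 784 CPM, and the neutrophil-granulocyte list to 905 to 1147 and 627 to 1010 CPM. Dntt and Rag1, both active in antigen receptor gene rearrangement, had means of 1632 and 26.2 CPM in sham and 1895 and 43.3 CPM in surgery, with overlap, and Notch1 411 and 346 CPM. The B-cell list had means of 416 and 503 CPM, with overlap. G2 and M genes were higher for 12 of 14, with summed means of 1279 and 1424 CPM and overlap. Median UMIs per cell were 4385 to 7019 in sham and 4963 to 8885 in surgery. The part of these differences in the member shift was not tested.

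In the other types the member medians were nearer 0. The lymphoid-primed log2 change of the summed level exceeded that of the HSC gate by 0.20 (0.20 in batch 1 and 0.19 in batch 2), of erythroid progenitors by 0.17 and of B cells by 0.13; no p is given for these differences of a sum. In monocyte progenitors 53 of 78 members were lower after surgery, with a median of -0.03, and the summed level was 6907 ± 43.5 CPM in sham and 6818 ± 139 CPM in surgery. Medians were 0.0031 in neutrophil-granulocyte and 0.0035 in erythroid progenitors, 0.03 in megakaryocyte progenitors, -0.01 in basophil-mast progenitors and 0.03 in B cells.

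**Figure D5:**
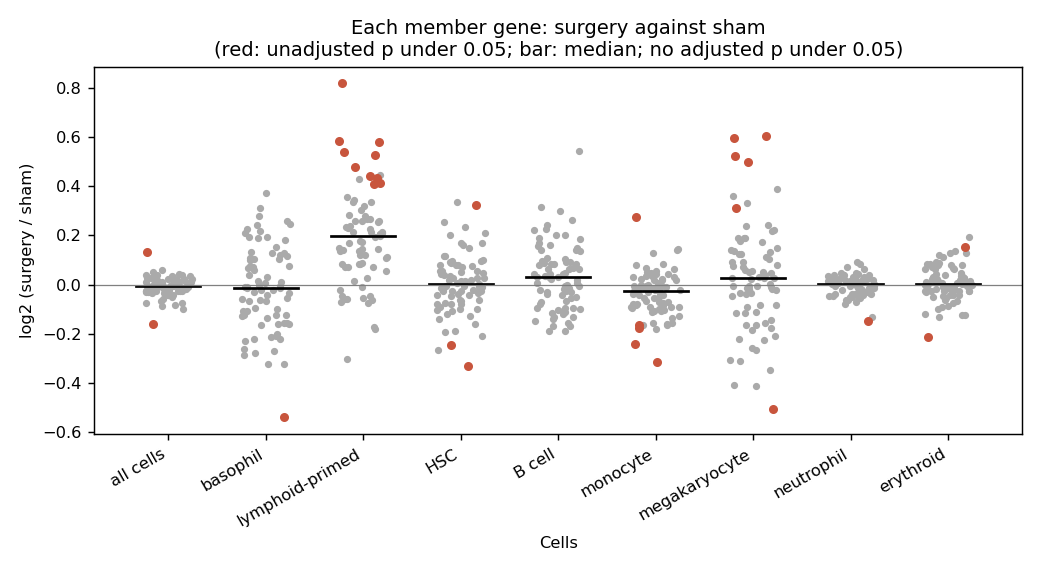
Change of each member gene after surgery, log2 of surgery over sham (vertical axis), over all cells and in 8 cell types (horizontal axis); red points have an unadjusted p under 0.05, grey points do not, bars mark the median, and no point passed an adjusted p of 0.05. The medians run from -0.03 to 0.03 except in lymphoid-primed cells (0.20).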

How the data were processed

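The deposited UMI counts per gene and per hashtag were made with Cell Ranger and the GRCm38 build, per the submitters' processing notes; versions, filters and the counting strand are not given in the sources used here. Cells kept had at least 1000 UMIs, at least 500 genes, at most 10% mitochondrial UMIs and exactly 1 hashtag with at least 200 counts. Barcodes with several hashtags were removed and no doublet caller was run, so doublets within a hashtag remain. Types came from marker scores (top score at least 0.3 and at least 1.5 times the second), whose limits were set after seeing the scores but not the members; 67.3% of cells were gated. The 2210 cells with a top score between 0.25 and 0.35 lay near that limit.

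Counts were summed per replicate and type, filtered with filterByExpr, scaled with TMM and tested with edgeR 4.0.16 (R 4.3.3); DESeq2 1.42.0 was an alternative. The script was checked on simulated counts. CPM divides by all UMIs of the sum. The members and lists were chosen with earlier results of these data known. Exact permutation tests had been planned for summed levels, and their p-values are not given for that reason. Members named were those past the threshold in a surgery fit, the 6 highest and 6 lowest over all cells, the 3 highest and 3 lowest calls per HSC contrast, and a list by role, all with a mean of at least 20 CPM except the last; other choices are marked in the text.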

Additional observations from a re-analysis of the deposited data

Results flagged for a closer look

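In 18 groups of 4 replicates the summed member level was examined for a replicate far from the other 3, which chance gives in about 1 of 20 groups. The lymphoid-primed sham replicate 1 of batch 2, at 4127 CPM, lay far below the other sham replicates, which were at 4725 to 4788 CPM. In the same cells the surgery replicate 1 of batch 1, at 5514 CPM, lay far above the other surgery replicates, at 5070 to 5132 CPM. The erythroid surgery replicate 2 of batch 2, at 9502 CPM, lay below the others, at 9930 to 9970 CPM. Without that lymphoid-primed sham replicate the median member change in those cells was 0.15, and without that surgery replicate 0.18, in place of 0.20.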

How the results depend on the processing

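No member was called over all cells under any of 19 alternatives, while the genes called over all ranged from 0 to 22 in place of 7. Over the gated types the member count was 0 except without batch 1 sham replicate 1, where it was 1 (Mrpl40 in lymphoid-primed cells), so leaving out replicates gave 0 to 1; the genes called ranged from 28 with no batch term to 333 with no low-count filter, in place of 72. Same-numbered replicates deviated together by correlations of -0.14 to 0.07, so the numbers were not treated as pairs. With a replicate block 0 members were called over all cells and over the types, with 0 and 100 genes called in all, and with the numbers crossed, added after seeing the data, 0 members, with 0 and 65 genes. The 275 member calls of the 5 HSC contrasts ranged from 264 to 277 with a replicate left out and fell to 209 with cells thinned to 2000 UMIs. Calls over all genes, with 11433 tested in each contrast, fell as well, from 36661 to 22065 with thinned cells. The fall was thus not particular to the members. The surgery minus sham difference over all cells of -86.5 CPM became 41.0 CPM with thinned cells, and ran from -156 to -46.1 CPM with a replicate left out. Types with all replicates higher in cells with G2 and M transcripts numbered 2. The number was 1 at 1000 UMIs, 3 with a single G2 or M gene, 4 without thinning and 2 to 3 with a replicate left out. Of 123 named gene results, followed through 1965 refits, 1838 kept their call, 122 lost it and 5 changed sign: with thinned cells Mrpl11 and Mrpl14 against monocyte progenitors (0.076 and 0.066) and Mrps18a against B cells (0.14), and with library totals only, added after seeing the data, Mrpl19 and Mrps6 against erythroid progenitors (0.0079 and 0.030); the cause was not tested. The lymphoid-primed median ranged from 0.15 to 0.26.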
